A study of Homo sapiens with 6 samples.

Results

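The genes of mitosis and chromosome segregation described here are 60 protein-coding genes chosen by name for their known roles. They comprise 5 spindle checkpoint genes, 10 centromere and kinetochore genes, 4 genes of the chromosomal passenger complex, 10 kinases, cyclins and phosphatases of mitotic entry, 8 anaphase and cohesion genes, 7 condensin and chromosome structure genes, 8 mitotic kinesins, 4 spindle assembly factors and 4 cytokinesis genes. All 60 were found among the 29476 genes of the deposited table, and all 60 passed the low-count filter that left 15515 genes for testing. RNA sequencing was done on A549 cells, an established human lung adenocarcinoma line, after transfection with negative control siRNA (si-NC) or with siRNA that targets NORAD, a long noncoding RNA (si-NORAD). There were 3 libraries in each group, which the labels number 4, 5 and 6, and all cells came from this 1 line and received a lipid transfection reagent. The sources used here do not give the siRNA sequences, the time from transfection to harvest, or whether each library had a culture of its own. The p-values thus cover only the spread among these libraries, and part or all of that spread may be technical.

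At mitosis, cyclin B with CDK1 starts chromosome condensation and spindle assembly, kinetochores attach chromosomes to microtubules, and the spindle checkpoint holds the cell until every kinetochore is attached. The anaphase-promoting complex, with its activator CDC20, then marks securin and cyclin B for destruction, separase opens the cohesin rings, and the cell divides. NORAD is an abundant cytoplasmic RNA that binds Pumilio proteins, repressors of messenger RNAs that carry a short motif in the 3′ UTR, and its loss is reported to cause chromosome missegregation. Setting si-NORAD against si-NC bears on whether the messenger RNAs of this machinery differ between cells given these siRNAs. In bulk RNA, fewer dividing cells and less of these RNAs per cell cannot be told apart.

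The members share promoter letters that the choice of genes did not use. Genes of the G2 and M phases are known to carry a CHR element, searched here as TTTGAA or TTCGAA, and CCAAT boxes bound by the factor NF-Y. TTCGAA is its own reverse complement, and a CHR match and a CCAAT match may share bases. Each was searched on both strands in RefSeq windows (build GRCh38.p14) from 250 bases before to 50 bases after a start, and 53 of the 60 members had a window. The promoters of AURKA, BIRC5, BUB3, RACGAP1, TPX2, TTK and UBE2C were not analysed here. A CHR match was present in 40 of the 53 members (75.5%) and in 15.4% of the 10759 tested genes with a window. Within 50 bases of the start on either side, 34 members (64.2%) and 4.86% of all genes had one. A CCAAT match was present in 41 members (77.4%) against 42.6% of all genes, 2 or more CCAAT matches in 1 window in 24 members (45.3%) against 15.9%, and both elements in 31 members (58.5%) against 8.37%. The stretches below were picked to show 1 or both elements in members with fold changes below, near and above 0. In CDK1, CDC25C, KIF2C and PLK4 the same stretch held no match. Each runs from 120 bases before the RefSeq start to the last base before the most upstream annotated start, 5′ to 3′ on the gene's strand, with CHR and CCAAT matches in either orientation in capitals.
CDC20 (chr1:43358861-43358954, plus strand): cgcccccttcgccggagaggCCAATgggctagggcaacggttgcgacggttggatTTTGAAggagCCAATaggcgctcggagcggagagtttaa
PTTG1 (chr5:160421735-160421821, plus strand): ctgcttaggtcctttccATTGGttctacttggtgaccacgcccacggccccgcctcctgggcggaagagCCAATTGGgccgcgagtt
SPC24 (chr19:11155809-11155902, minus strand): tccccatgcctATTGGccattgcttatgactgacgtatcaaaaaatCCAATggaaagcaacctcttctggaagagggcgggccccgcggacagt
KIF4A (chrX:70289984-70290089, plus strand): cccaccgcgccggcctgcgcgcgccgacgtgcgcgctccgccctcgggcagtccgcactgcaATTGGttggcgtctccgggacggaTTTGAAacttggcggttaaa
KIF11 (chr10:92593010-92593129, plus strand): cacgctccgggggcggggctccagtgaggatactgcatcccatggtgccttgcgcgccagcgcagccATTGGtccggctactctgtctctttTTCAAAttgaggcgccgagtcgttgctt
ESPL1 (chr12:53268179-53268298, plus strand): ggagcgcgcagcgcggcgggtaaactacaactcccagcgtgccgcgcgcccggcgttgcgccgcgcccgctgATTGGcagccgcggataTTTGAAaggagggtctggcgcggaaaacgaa
MKI67 (chr10:128126424-128126543, minus strand): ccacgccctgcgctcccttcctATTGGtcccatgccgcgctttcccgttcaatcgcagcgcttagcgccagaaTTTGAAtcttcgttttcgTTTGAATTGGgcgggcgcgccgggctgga
CENPF (chr1:214603075-214603194, plus strand): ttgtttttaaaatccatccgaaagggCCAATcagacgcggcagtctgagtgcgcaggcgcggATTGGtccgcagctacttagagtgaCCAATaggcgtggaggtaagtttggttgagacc
CDC20 has a CHR match 65 bases before its start, between CCAAT matches at 100 and 55 bases. PTTG1 and SPC24 show CCAAT matches in these stretches but no CHR match, and in PTTG1 a sense and an antisense CCAAT share bases. MKI67, the member with the highest fold change, has CHR matches at 47 and 29 bases before the start, the nearer of which runs into an antisense CCAAT. CENPF, also higher in si-NORAD, has 3 CCAAT matches, and the CHR match in its window lies after the start. The matches were spread over much of the window but were unevenly placed: 14 members (26.4%) had a CHR match starting 50 to 26 bases before the start and 15 (28.3%) had one starting 25 to 1 bases before it, against 1.43% and 1.29% of all genes. For CCAAT, 26 members (49.1%) had a match starting 75 to 51 bases before the start, against 12.8% of all genes. A match describes letters in the window, not binding.

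**Figure D1:**
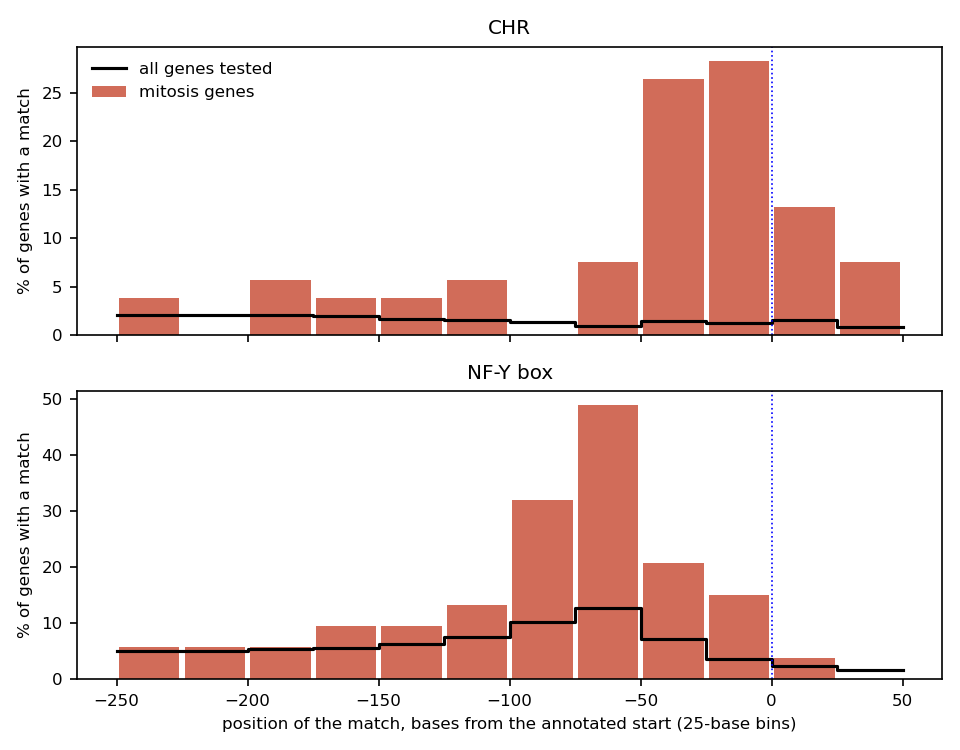
Share of members (53 with a window) and of all tested genes with a window (10759) that hold a CHR match or a CCAAT match, in steps of 25 bases from 250 bases before to 50 bases after the start, on both strands. In the 25 bases just before the start 28.3% of members and 1.29% of all genes held a CHR match.

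Many members also carry the motif that Pumilio proteins bind. The motif TGTANATA, where N is any base, read on the RNA strand only and written in DNA letters, was present in the longest annotated 3′ UTR (GENCODE 29, GRCh38) of 27 of 60 members (45.0%) and of 29.6% of 12950 tested genes with a 3′ UTR. The members' 3′ UTRs were shorter, with a median of 719.5 bases against 1359.5, and held 0.612 motifs per kilobase against 0.231. In 9 members (15.0%) there were 2 or more, against 10.6% of all genes. NORAD itself holds 15 in its transcript of 5339 bases. The sites below are 30 bases long, with the motif in capitals, and are shown for members with fitted values below 0 (CCNB1, CDK1, MAD2L1, NUF2, SPC25) and for the 2 members with the highest fold changes (MKI67, and CENPF with 3 sites). Other members with the motif and fitted values above 0 were BUB1, BUB1B, INCENP, KIF11, KIF14 and TOP2A.
CCNB1 (chr5:69177679-69177708, plus strand): catgtgccatcTGTACATAttactgttgca
CDK1 (chr10:60794113-60794142, plus strand): taacttaaaaaTGTAAATAttctatatgaa
MAD2L1 (chr4:120055693-120055722, minus strand): gcggcttaactTGTAAATAatttcttattc
NUF2 (chr1:163355686-163355715, plus strand): ctgccccttgtTGTAAATAgtttgagtaaa
SPC25 (chr2:168871401-168871430, minus strand): catacaaatagTGTATATAaaaacggttta
CENPF (chr1:214664005-214664034, plus strand): ctctactgcaaTGTAAATAgtataaagcta
CENPF (chr1:214664024-214664053, plus strand): gtataaagctaTGTATATAaagctttttgg
CENPF (chr1:214664354-214664383, plus strand): cttatgaaaccTGTACATAtgtgtgtgtgg
MKI67 (chr10:128098154-128098183, minus strand): agcttcagactTGTAGATAtaactcgttca
The median log2 fold change, si-NORAD over si-NC, was -0.08 in the 27 members with the motif, of which 19 were lower, and -0.09 in the 33 without it, of which 23 were lower. Over all tested genes the medians were 0.07 with and -0.04 without. Fold changes of all tested genes also rose with gene length, as described below, and this comparison was not matched for length. For the promoter elements, the median was -0.03 in the 40 members with a CHR match, of which 24 were lower, and -0.21 in the 13 without, of which 11 were lower. It was -0.09 in the 41 members with a CCAAT match (30 lower) and 0.01 in the 12 without (5 lower). The direction of these promoter contrasts depended on the search. On the sense strand alone, the CHR medians were -0.09 with a match and -0.05 without. Within 50 bases of the start on both strands, the CCAAT medians were -0.04 with and -0.09 without. The CHR contrast within 50 bases on both strands and the CCAAT contrasts on the sense strand kept their direction. None of these differences was tested.

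Levels are given as CPM, the read count scaled to a common library total, or as FPKM, which further divides by gene length, and library values stand in the order 4, 5 and 6. Gene positions are those of GENCODE 29 on GRCh38. Total counts ran from 19332334 to 32760606 per library. Across the 15515 tested genes, log2 CPM of si-NC 4 correlated with the 3 si-NORAD libraries at 0.995, 0.994 and 0.994, but with si-NC 5 at 0.990 and with si-NC 6 at 0.983, so si-NC 4 stood nearer to the si-NORAD libraries than to its own group. All 10 markers of A549 cells and simple epithelium were found, with a summed level of 4406 to 5471 FPKM in si-NC and 4720 to 4772 FPKM in si-NORAD. The labels' extraction protocol speaks of retina. Of 10 retinal markers 8 were found, none at 0 in every library, and they summed to 0.578 to 0.788 FPKM in si-NC and 0.515 to 0.927 FPKM in si-NORAD. The 5 of 6 fibroblast markers found summed to 1.33 to 1.65 FPKM in si-NC and 1.77 to 1.93 FPKM in si-NORAD, and the 6 of 7 blood and endothelial markers found to at most 0.106 FPKM. The part of such cells in the members' values was not tested.

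The targeted NORAD (ENSG00000260032) measured 549.5, 461 and 423 CPM in the control libraries 4, 5 and 6, against 359, 372 and 399.6 CPM in the libraries given si-NORAD. The groups did not overlap in CPM but did in FPKM. The log2 fold change was -0.34 (SE 0.11, 95% interval -0.59 to -0.10), with an edgeR quasi-likelihood adjusted p of 0.196 after Benjamini-Hochberg correction over all tested genes. NORAD therefore did not pass the threshold of 0.05.

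No mitosis gene passed the test between si-NORAD and si-NC, while fitted values were lower in si-NORAD for 42 of the 60, against 49.1% of all genes. The edgeR quasi-likelihood test called 0 of 60 members, where 0.00645% of all tested genes (1 gene) passed, and the members' adjusted p ran from 0.196 to 0.990. At an unadjusted p under 0.05 there were 21 members lower and 2 higher (CENPF and MKI67), against 12.1% and 9.51% of all genes (21.6% in either direction). The median log2 fold change was -0.09 in the members and 0.0055 in all genes. In 23 members every si-NORAD library lay below every si-NC library in CPM, and in 2 every one lay above, against 12.7% and 12.7% of all genes (25.4% in either direction). In FPKM the counts were 21 and 2, against 10.1% and 15.8%. DESeq2 called 7 members lower (CCNB1, CDC20, CDK1, MAD2L1, NUF2, PTTG1 and SPC25) and 0 higher, against 2.95% and 1.05% of all genes with an adjusted p (4% in all). Differences were small: the 95% interval stayed within a 2-fold change for every member but PRC1, between -0.80 and 0.84 on the log2 scale.

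The outcome turned on which si-NC libraries were used. Without si-NC 4, edgeR called 25 members lower and 11 higher, where 20.3% and 19% of all genes were called (39.3% in all). Without si-NC 5 and 6 it called 6 members lower (ANLN, CCNA2, CCNB1, CDC20, CDK1 and MAD2L1) and 0 higher, against 1.51% and 1.53% (3.05% in all). In that fit a single si-NC library remains and is assumed to vary like the others. CCNB1, CDC20, CDK1 and MAD2L1 were the members called lower in both fits and by DESeq2, all of which use the same si-NORAD libraries. With no low-count filter, edgeR called 9 members lower and 2 higher, against 3.57% and 3% of all genes (6.56% in all).

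The si-NC libraries differed among themselves in many members. The level in si-NC 4 was above every si-NORAD library in 43 members, against 29.5% of all genes, and below every one in 3 (CENPF, MKI67 and ZWINT), against 29.9%. In si-NC 5 and 6 it was above every si-NORAD library in 30 members, against 30.6%, and below in 13, against 30.4%. The mean difference from si-NORAD had opposite signs in si-NC 4 and in si-NC 5 and 6 for 21 members.

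**Figure D2:**
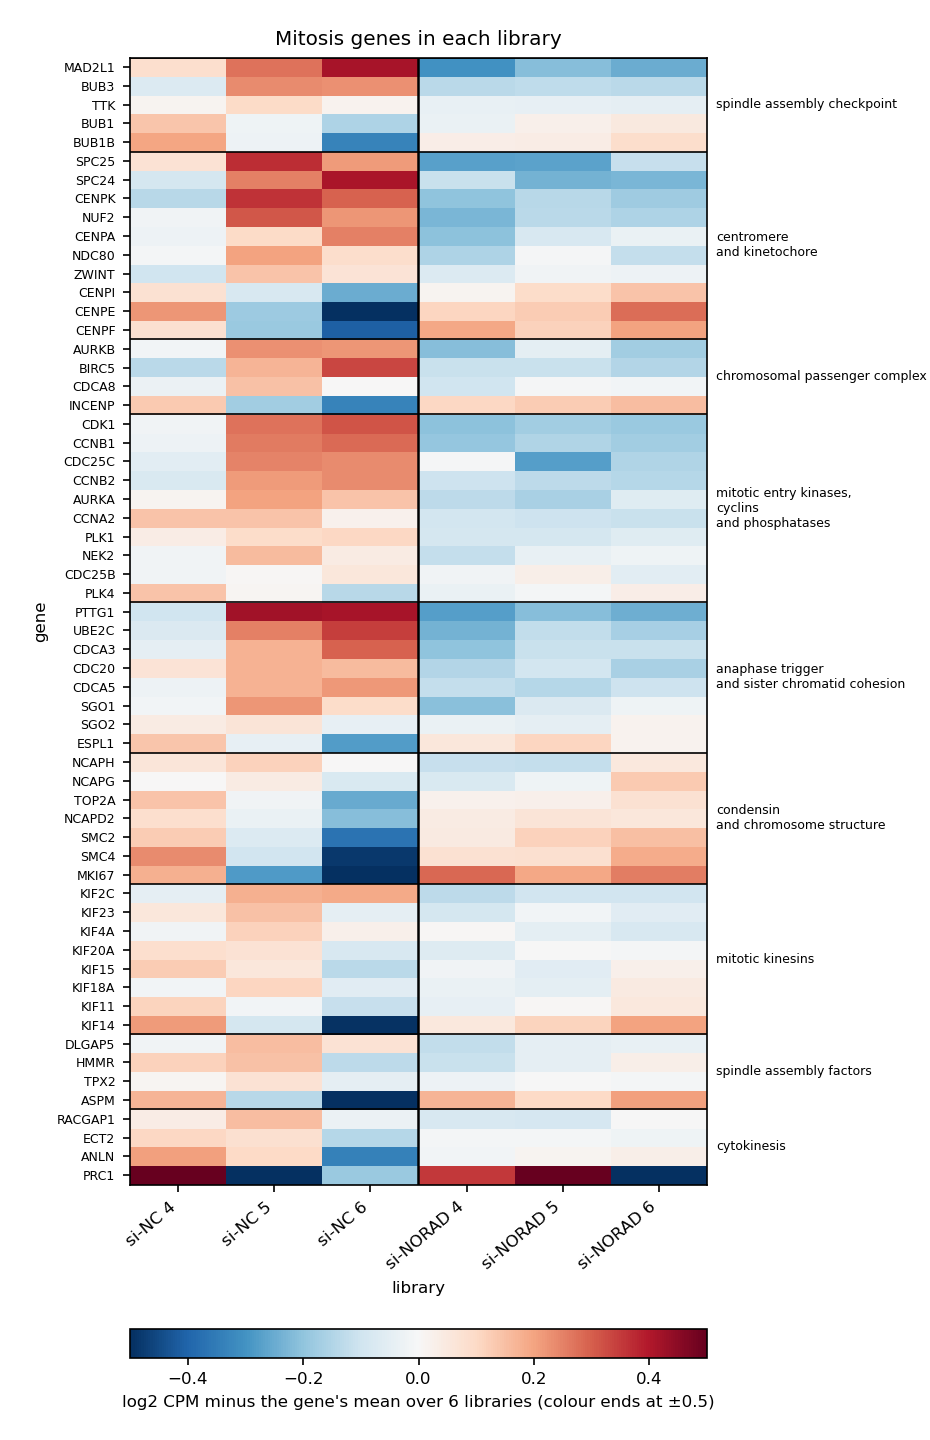
Deviation of each member's log2 CPM from its mean over the 6 libraries, with members in rows grouped by role and the 3 si-NC and 3 si-NORAD libraries in columns. Apart from PRC1, the si-NORAD columns resemble each other, while si-NC 4 and si-NC 6 lie far apart for MKI67, CENPE and SMC4. PRC1 had 6 to 21 counts per library.

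**Figure D3:**
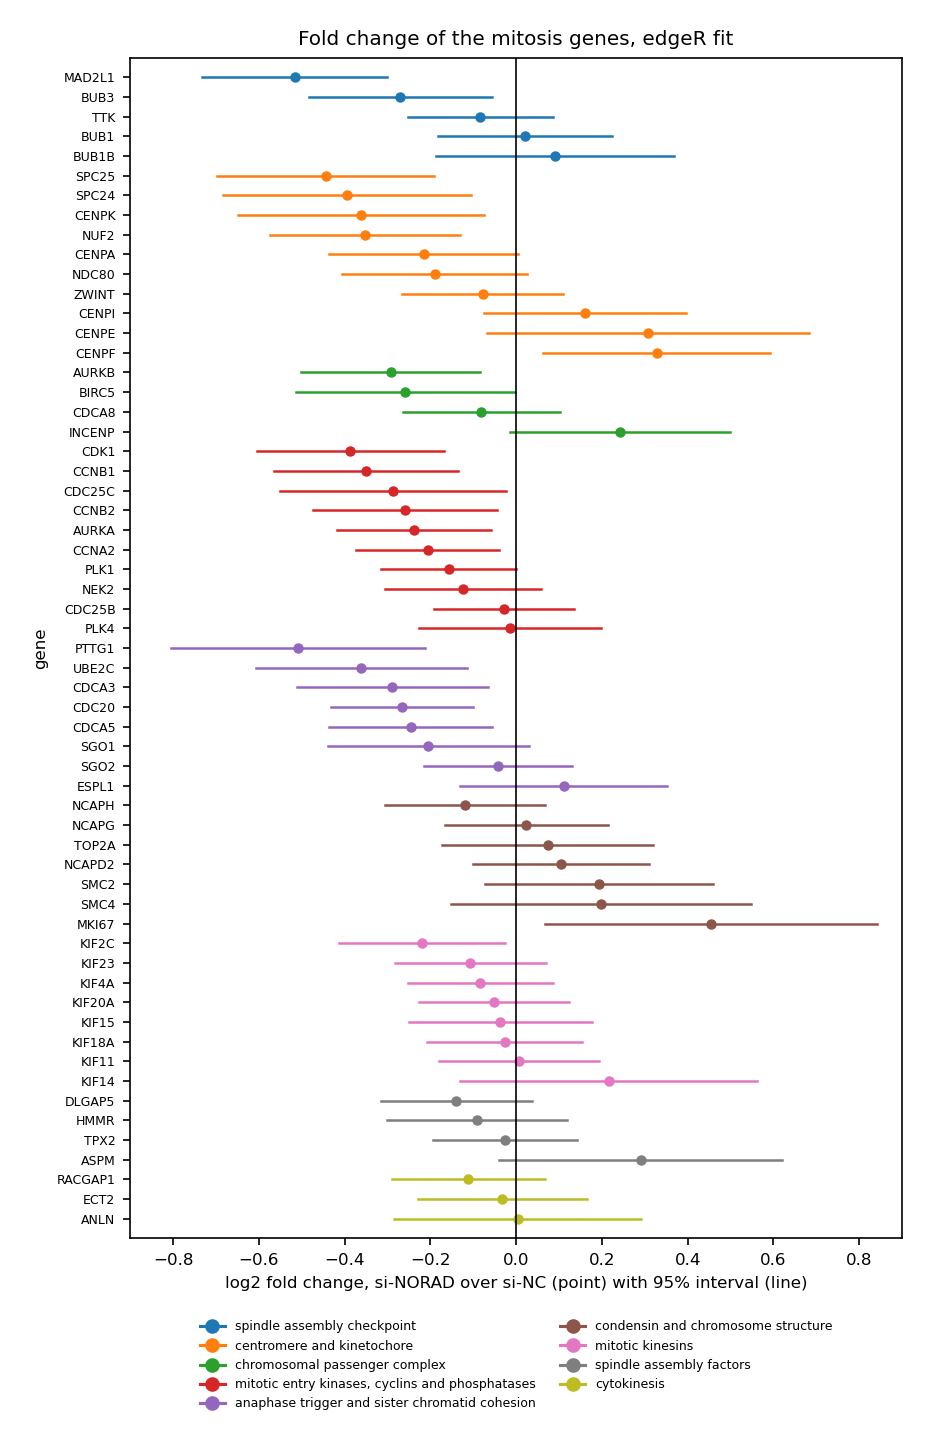
Log2 fold change (si-NORAD over si-NC) of 59 members with its 95% interval, by role; PRC1, whose interval runs from -0.79 to 1.19, is left out. The lowest value is that of MAD2L1 (-0.52) and the highest that of MKI67 (0.45).

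In the spindle assembly checkpoint, the group of genes that delays anaphase, MAD2L1 had the lowest log2 fold change, which was also the lowest of all 60 members. Lower and higher refer here and for each group to the fitted value. For each group, counts at an unadjusted p under 0.05 stand beside 12.1% of all genes lower and 9.51% higher. Of 5 members 3 were lower and 2 higher, with a median log2 fold change of -0.08 (-0.13 without si-NC 5 and 6), 2 at an unadjusted p under 0.05. MAD2L1 (ENSG00000164109, chr4:120055608-120067074, minus strand), which binds and inhibits CDC20, was measured at 71.8, 81.9 and 90.2 CPM in si-NC 4, 5 and 6 and 54.9, 58.6 and 57.1 CPM in si-NORAD 4, 5 and 6. All si-NORAD libraries lay below all si-NC libraries, with the si-NC 4 value nearest to them. This gave a log2 fold change of -0.52 (SE 0.10, 95% interval -0.73 to -0.30), with an unadjusted p of 0.000407 and an edgeR adjusted p of 0.196. Without si-NC 4 the log2 fold change was -0.60, and without si-NC 5 and 6 it was -0.34. BUB3, a platform for checkpoint proteins at kinetochores and the member of the group with the highest FPKM, was at 217, 267 and 266 CPM in the si-NC libraries and 207, 208 and 207 CPM in the si-NORAD libraries. The si-NORAD libraries of BUB3 were nearly equal, and its log2 fold change was -0.27 (95% interval -0.48 to -0.06). The kinases BUB1 and TTK and the pseudokinase BUB1B had log2 fold changes of 0.02, -0.08 and 0.09. For TTK all si-NORAD libraries still lay below all si-NC libraries, between 40.2 and 40.6 CPM against 41.9 to 44.4 CPM.

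At the centromere and kinetochore, the 4 genes of the NDC80 complex, the clamp that grips microtubule ends, all had fitted values below 0, and CENPF and CENPE had fitted values above 0, with 0 past the test. The 10 members, 7 lower and 3 higher, had a median log2 fold change of -0.20. It was -0.07 without si-NC 5 and 6 and -0.13 with the length trend removed. At an unadjusted p under 0.05 there were 4 lower and 1 higher, against 12.1% and 9.51% of all genes. SPC25 (ENSG00000152253, chr2:168834132-168913371, minus strand) was at 13.6, 16.7 and 15.0 CPM in the si-NC libraries and 10.7, 10.7 and 11.9 CPM in the si-NORAD libraries, with a log2 fold change of -0.44 (SE 0.11, 95% interval -0.70 to -0.19) and an edgeR adjusted p of 0.196. NUF2 (ENSG00000143228, chr1:163266576-163355764, plus strand) was at 46.2, 57.9 and 54.4 CPM in the si-NC libraries and 39.8, 42.5 and 41.9 CPM in the si-NORAD libraries, with a log2 fold change of -0.35 (SE 0.10, 95% interval -0.57 to -0.13). SPC24 (ENSG00000161888, chr19:11131520-11155808, minus strand) was at 21.2, 26.8 and 29.9 CPM in the si-NC libraries and 20.8, 19.1 and 19.2 CPM in the si-NORAD libraries, with a log2 fold change of -0.39 (SE 0.13, 95% interval -0.68 to -0.10). In these 3 genes the groups did not overlap, although in SPC24 the si-NC 4 value (21.2 CPM) lay just above the highest si-NORAD value (20.8 CPM). NDC80, the complex's namesake, had a log2 fold change of -0.19 with overlapping groups. CENPA, the histone variant that marks centromeres, had -0.22, and CENPK, a constitutive centromere protein, -0.36. CENPF (ENSG00000117724, chr1:214603195-214664588, plus strand), a large coiled-coil protein of the outer kinetochore, went the other way at 213, 177 and 151 CPM in the si-NC libraries and 229.8, 218 and 231 CPM in the si-NORAD libraries. Its groups did not overlap, and it had a log2 fold change of 0.33 (SE 0.12, 95% interval 0.06 to 0.59). The lowest si-NC value of CENPF, 151 CPM in si-NC 6, lay farther from si-NC 4 (213 CPM) than si-NC 4 lay from the si-NORAD libraries. The kinetochore motor CENPE had a log2 fold change of 0.31 and CENPI 0.16, with overlapping groups in both. Without si-NC 5 and 6 the values were -0.05 for CENPE, 0.00083 for CENPI, -0.03 for CENPK and 0.09 for CENPF. SPC25, NUF2, SPC24 and NDC80 were then at -0.30, -0.16, -0.09 and -0.09. With the length trend removed, CENPF (11690 bases) was at 0.14 and CENPE (9444 bases) at 0.18. In that fit the shorter SPC25, NUF2, SPC24 and NDC80, of 1841 to 3600 bases, were at -0.34, -0.30, -0.31 and -0.15. ZWINT, which links the outer kinetochore to the checkpoint and had the highest FPKM of these genes, had -0.08.

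In the chromosomal passenger complex, which corrects faulty attachments, 0 of 4 members passed the test, and 2 of them turned direction with the si-NC libraries used. The median log2 fold change was -0.17 (-0.0099 without si-NC 5 and 6), with 3 fitted values below 0 and 1 above, 2 of the former at an unadjusted p under 0.05. AURKB (ENSG00000178999, chr17:8204733-8210600, minus strand), the kinase, was at 73.2, 86.6 and 86.0 CPM in the si-NC libraries and 63.8, 71.4 and 65.5 CPM in the si-NORAD libraries, without overlap, and had a log2 fold change of -0.29 (SE 0.09, 95% interval -0.50 to -0.08). BIRC5, or survivin, was at 175, 217 and 242 CPM in the si-NC libraries and 178, 178 and 174 CPM in the si-NORAD libraries, so that si-NC 4 lay among the si-NORAD libraries while si-NC 5 and 6 lay above. Its log2 fold change was -0.26 with all libraries and 0.01 without si-NC 5 and 6. INCENP, the scaffold, was at 111, 89.6 and 80.2 CPM in the si-NC libraries and 109, 110.4 and 113 CPM in the si-NORAD libraries, again with si-NC 4 among the si-NORAD libraries, and its log2 fold change was 0.24 (95% interval -0.02 to 0.50), or -0.0037 without si-NC 5 and 6. CDCA8, or borealin, had -0.08.

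The 10 kinases, cyclins and phosphatases of mitotic entry all had fitted values below 0, but 0 passed the test, and PLK4 and CDC25B lay near 0 with groups that overlapped. Their median log2 fold change was -0.22 (-0.13 without si-NC 5 and 6). At an unadjusted p under 0.05, 7 were lower, against 12.1% of all genes. In 7 of the 10 all si-NORAD libraries lay below all si-NC libraries, against 12.7% of all genes. CDK1 (ENSG00000170312, chr10:60778331-60794852, plus strand), the kinase that drives entry into mitosis, was at 138, 168 and 173 CPM in the si-NC libraries and 121, 123 and 122 CPM in the si-NORAD libraries. The si-NORAD values of CDK1 were nearly equal, while si-NC 4 lay between them and the other si-NC libraries. It had a log2 fold change of -0.39 (SE 0.10, 95% interval -0.60 to -0.17), an unadjusted p of 0.00296 and an edgeR adjusted p of 0.196. CCNB1 (ENSG00000134057, chr5:69167010-69178245, plus strand), the cyclin B that activates CDK1 and the gene of this group with the highest FPKM, was at 238, 290.3 and 295 CPM in the si-NC libraries and 212, 218 and 215 CPM in the si-NORAD libraries. This pattern, with si-NC 4 between the other si-NC and the si-NORAD libraries, gave a log2 fold change of -0.35 (SE 0.10, 95% interval -0.57 to -0.14). Without si-NC 5 and 6 the log2 fold changes of CDK1 and CCNB1 were -0.17 and -0.15. AURKA (ENSG00000087586, chr20:56369389-56392337, minus strand), a kinase of spindle poles, was at 152, 173 and 167 CPM in the si-NC libraries and 138, 135 and 145 CPM in the si-NORAD libraries, with a log2 fold change of -0.24 (SE 0.08, 95% interval -0.42 to -0.06). CCNA2, the cyclin of S and G2 phases, was at 83.7, 83.7 and 76.8 CPM in the si-NC libraries and 71.0, 70.4 and 70.2 CPM in the si-NORAD libraries, with si-NC 4 and 5 nearly equal and no overlap. Its log2 fold change was -0.21 with all libraries and -0.25 without si-NC 5 and 6. CCNB2, the other B-type cyclin here, and PLK1, a kinase needed from entry to exit, had log2 fold changes of -0.26 and -0.16. The phosphatases CDC25C and CDC25B, which activate CDK1, had -0.29 and -0.03, and the centrosome kinase NEK2 had -0.12. PLK4, the kinase of centriole duplication, lay nearest to 0 at -0.01, and was 0.04 on the log2 FPKM scale.

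**Figure D4:**
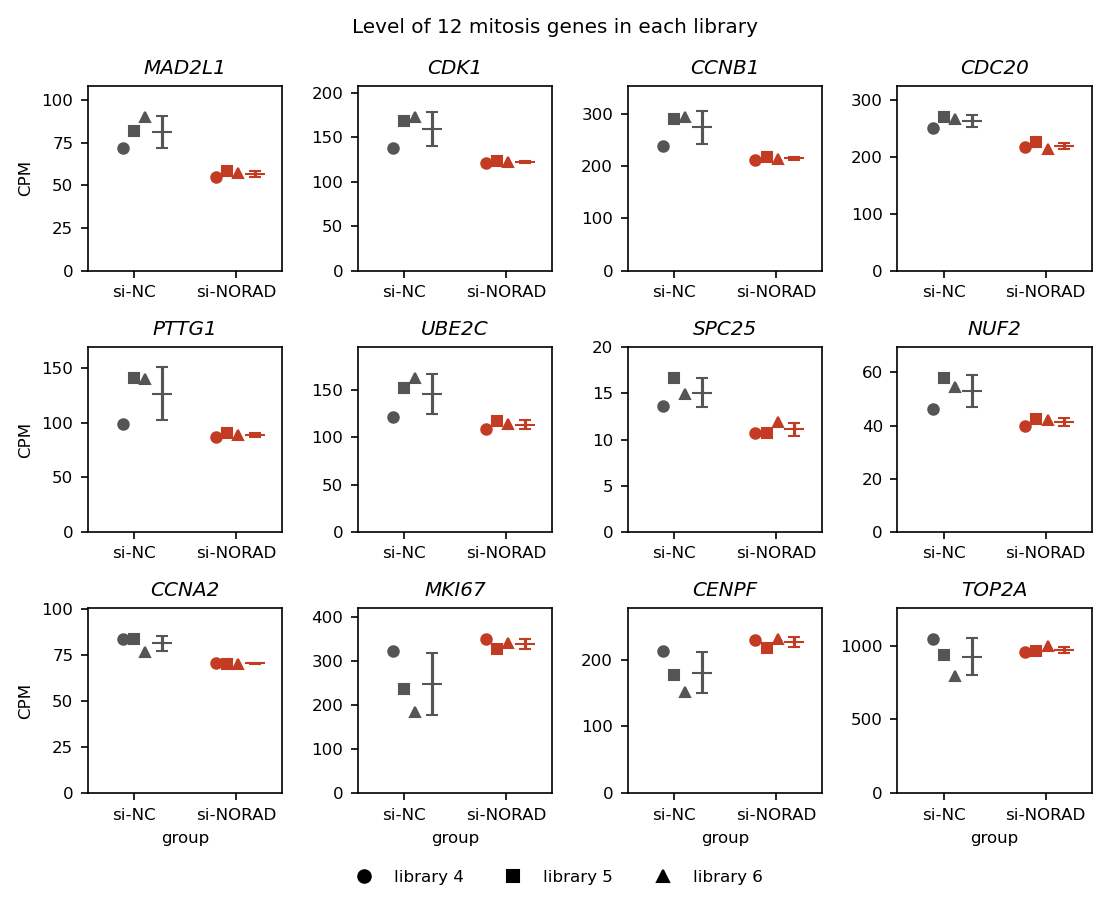
CPM of 12 members in each library (circle, square and triangle for libraries 4, 5 and 6), with the mean and SD of each group of 3; each axis starts at 0. For PTTG1, CDK1 and CCNB1 the si-NC 4 point lies between the other si-NC points and the si-NORAD points, and for MKI67 and CENPF all si-NORAD points lie above the si-NC points.

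The anaphase trigger and cohesion genes had fitted values below 0 in 7 of 8 members, with a median of -0.26. At an unadjusted p under 0.05, 5 were lower, against 12.1% of all genes. The median was the lowest of the 9 role groups with all libraries, but without si-NC 5 and 6 it was -0.10, and those of cytokinesis, checkpoint, mitotic entry and kinesin genes were then lower. PTTG1 (ENSG00000164611, chr5:160421822-160428744, plus strand), the securin that inhibits separase, was at 98.5, 141 and 140.3 CPM in the si-NC libraries and 87.2, 90.9 and 88.9 CPM in the si-NORAD libraries. The difference between si-NC 4 and the other si-NC libraries of PTTG1 was larger than that between si-NC 4 and si-NORAD. It had a log2 fold change of -0.51 (SE 0.13, 95% interval -0.80 to -0.21), an edgeR adjusted p of 0.196, and a log2 fold change of -0.15 without si-NC 5 and 6. CDC20 (ENSG00000117399, chr1:43358955-43363203, plus strand), the activator of the anaphase-promoting complex, was at 252, 271 and 268 CPM in the si-NC libraries and 217, 226 and 215 CPM in the si-NORAD libraries. Its 3 si-NC libraries lay close together and above all si-NORAD libraries, with a log2 fold change of -0.27 (SE 0.07, 95% interval -0.43 to -0.10) and -0.20 without si-NC 5 and 6. UBE2C (ENSG00000175063, chr20:45812576-45816957, plus strand), the enzyme that hands ubiquitin to that complex, was at 122, 152 and 163 CPM in the si-NC libraries and 109, 117 and 114 CPM in the si-NORAD libraries, with a log2 fold change of -0.36 (SE 0.11, 95% interval -0.61 to -0.12). CDCA3 (ENSG00000111665, chr12:6844793-6852066, minus strand), which promotes entry into mitosis through degradation of WEE1, was at 47.7, 55.4 and 60.2 CPM in the si-NC libraries and 42.7, 45.5 and 45.5 CPM in the si-NORAD libraries, with a log2 fold change of -0.29 (SE 0.10, 95% interval -0.51 to -0.07). In each of these 4 genes the groups did not overlap. CDCA3 is counted in this role group although the role given for it lies in mitotic entry. CDCA5, or sororin, which protects cohesin, had a log2 fold change of -0.25, and the shugoshins SGO1 and SGO2, which guard centromeric cohesion, had -0.20 and -0.04. ESPL1, the separase that securin inhibits, was at 67.5, 59.6 and 50.5 CPM in the si-NC libraries and 63.9, 66.0 and 62.0 CPM in the si-NORAD libraries, so that its si-NORAD libraries lay within the range of si-NC, and its log2 fold change was 0.11 (95% interval -0.13 to 0.35).

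Among the condensin and chromosome structure genes 6 of 7 had fitted values above 0, with a median log2 fold change of 0.10, and 1 was at an unadjusted p under 0.05. The sign of that median rested on si-NC 5 and 6: without them it was -0.03, and with the length trend removed it was 0.03. MKI67 (ENSG00000148773, chr10:128096659-128126385, minus strand), the proliferation antigen that coats mitotic chromosomes, was at 324, 236 and 185 CPM in the si-NC libraries and 350.2, 328 and 342 CPM in the si-NORAD libraries. The si-NORAD libraries all lay above the si-NC libraries, but the spread within si-NC, from 185 to 324 CPM, was wider than the distance from si-NC 4 to si-NORAD. It had a log2 fold change of 0.45 (SE 0.17, 95% interval 0.07 to 0.84), an edgeR adjusted p of 0.204, a log2 fold change of 0.69 without si-NC 4 and of 0.07 without si-NC 5 and 6. TOP2A, the topoisomerase that untangles sister chromatids and the group's gene with the highest FPKM, was at 1043, 933 and 793 CPM in the si-NC libraries and 957, 961 and 996 CPM in the si-NORAD libraries. Its si-NORAD libraries lay within the range of si-NC, and its log2 fold change was 0.07 (95% interval -0.17 to 0.32). The condensin ATPases SMC2 and SMC4 had log2 fold changes of 0.19 and 0.20. The condensin I subunits NCAPD2, NCAPG and NCAPH had 0.10, 0.02 and -0.12. In SMC4 the si-NC libraries ran from 179 to 295 CPM, on both sides of the si-NORAD range of 263 to 285 CPM.

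The mitotic kinesins, spindle assembly factors and cytokinesis genes had the medians nearest to 0 with all libraries. Without si-NC 5 and 6 these medians were -0.10, -0.04 and -0.16, the last then the farthest from 0 of the 9 groups, and without si-NC 4 the cytokinesis median was 0.06. Both cytokinesis medians rested in part on PRC1, with 6 to 21 counts per library, at -0.39 and 0.62 in these fits. ANLN, ECT2 and RACGAP1 were at -0.20, -0.12 and -0.09 without si-NC 5 and 6. Without si-NC 4 they were at 0.11, 0.01 and -0.12. The 8 kinesins had a median log2 fold change of -0.04, with 6 lower and 2 higher, and 1 was at an unadjusted p under 0.05. That one, KIF2C, which removes tubulin from microtubule ends, was at 61.5, 71.7 and 72.3 CPM in the si-NC libraries and 57.9, 59.4 and 59.3 CPM in the si-NORAD libraries, without overlap, and had a log2 fold change of -0.22. KIF11, the motor that pushes spindle poles apart and the kinesin with the highest FPKM, was at 145, 133 and 124 CPM in the si-NC libraries and 130.1, 134 and 139 CPM in the si-NORAD libraries, with a log2 fold change of 0.0071 (SE 0.08, 95% interval -0.18 to 0.19). KIF14, a kinesin of the midbody, was at 63.9, 51.9 and 39.2 CPM in the si-NC libraries and 57.2, 59.6 and 63.4 CPM in the si-NORAD libraries, and its log2 fold change was 0.22 with all libraries and -0.10 without si-NC 5 and 6. KIF15, KIF18A, KIF20A, KIF23 and KIF4A had log2 fold changes between -0.11 and -0.03. Of the 4 spindle assembly factors 3 were lower, with a median of -0.06 and 0 at an unadjusted p under 0.05. TPX2, which activates AURKA and had the highest FPKM of these 4, was at 340.4, 356 and 328 CPM in the si-NC libraries and 332, 338 and 336 CPM in the si-NORAD libraries, and its log2 fold change was -0.03. ASPM, a protein of spindle poles, was at 117, 94.8 and 73.6 CPM in the si-NC libraries and 118, 112 and 120.2 CPM in the si-NORAD libraries, with si-NC 4 among the si-NORAD libraries, and its log2 fold change was 0.29 (95% interval -0.04 to 0.62). HMMR and DLGAP5, which bind spindle microtubules, had -0.09 and -0.14.

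The 4 cytokinesis genes, with 2 lower and 2 higher, had a median of -0.01, and 0 were at an unadjusted p under 0.05. ECT2, which activates the small GTPase RhoA at the division plane and had the highest FPKM of these genes, was at 357, 352 and 301 CPM in the si-NC libraries and 331, 330.2 and 327 CPM in the si-NORAD libraries, with a log2 fold change of -0.03 (SE 0.09, 95% interval -0.23 to 0.17). RACGAP1, its partner at the central spindle, had -0.11, and the ring protein ANLN 0.0033. PRC1, which bundles the microtubules of the central spindle, had 6 to 21 counts per library and a mean of 0.0962 FPKM, and its log2 fold change of 0.20 had an interval from -0.79 to 1.19. In the annotation 57.6% of its exonic bases overlap AC068831.7, a protein-coding gene on the same strand with 96 to 203 counts per library, so the level of PRC1 is uncertain. Among the other members, 10.2% of the exonic bases of BUB1B overlap BUB1B-PAK6 on the same strand, and 6.96% of those of CENPA overlap SLC35F6. On the opposite strand, 33.1% of the exonic bases of NCAPG overlap LCORL, 18.5% of those of SMC4 TRIM59 and 17.7% of those of SGO1 SGO1-AS1. The sources used here do not say whether counting used strand. Pseudogenes and copies found in the table for AURKA, KIF4A, NCAPD2, CDC20, PTTG1, NCAPG and UBE2C held at most 3 counts in any library, and reads shared with such copies leave those members less certain.

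The members' fold changes followed gene length, as did those of genes in general. The 8 members under 2500 bases were all lower, with a median log2 fold change of -0.28, against -0.18 for all tested genes of that length. The 32 members of 2500 to 5000 bases had a median of -0.13 against -0.07, and the 20 of 5000 bases or more had 0.09 against 0.10. Across genes, which are not independent replicates and share the same 6 libraries, the correlation of log2 fold change with log2 length was 0.71 (Spearman 0.68) for the 60 members and 0.29 (Spearman 0.38) for all 15515 genes. The difference of si-NC 5 and 6 from si-NC 4 had a correlation of -0.68 with length in the members, and that of si-NC 4 from si-NORAD -0.23. MAD2L1, BUB3 and CDCA3 are long for members that were lower, at 5000 bases or more with groups that did not overlap. With the length trend removed from each library, edgeR called 0 members, where 0.0322% of all genes were called. The members' fold changes still correlated with length at 0.46 (Spearman 0.48) after that removal, so the trend was taken out only in part for them. At an unadjusted p under 0.05 there were then 21 members lower and 2 higher (INCENP and MKI67), against 14.5% and 7.15% of all genes (21.7% in either direction). What part length played in the members' values was not tested beyond this.

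**Figure D5:**
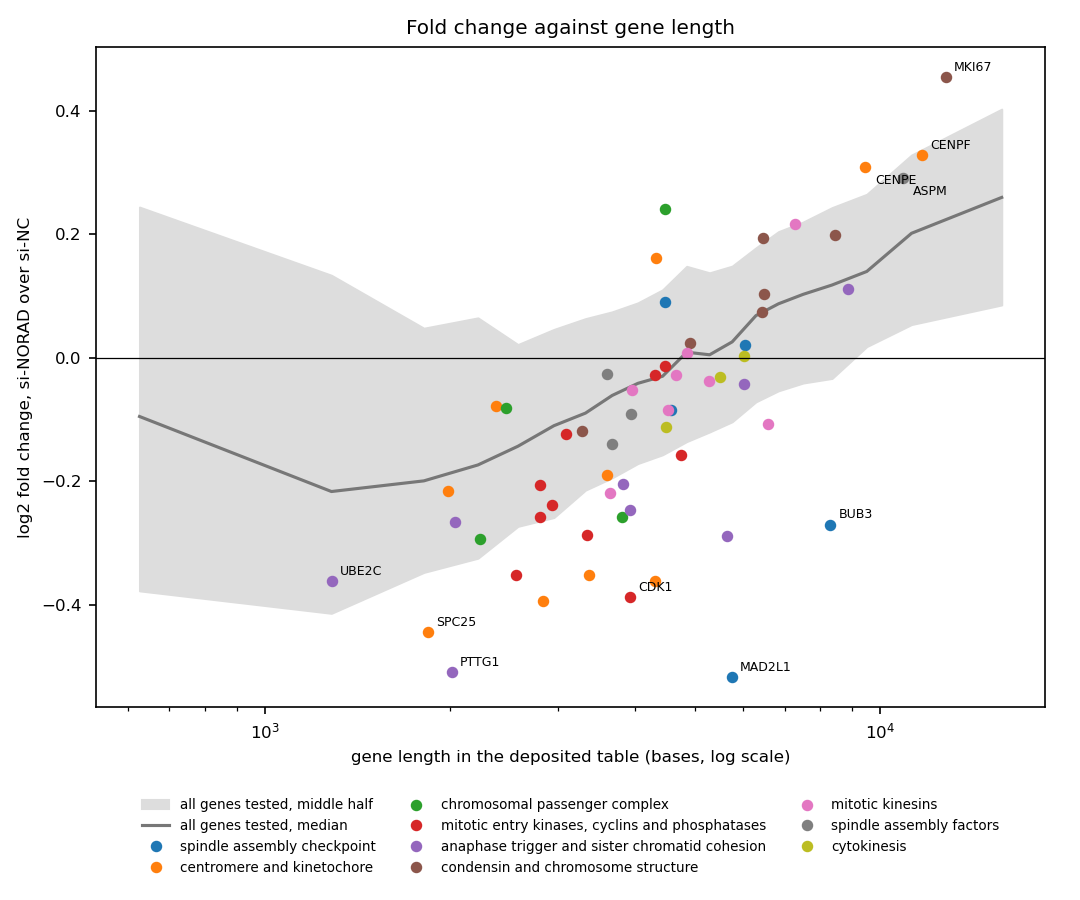
Log2 fold change (si-NORAD over si-NC) of 59 members against gene length on a log axis, coloured by role, with the median of all tested genes as a line and their middle 50% as a band; PRC1 is left out. Members rise with length as all genes do, but several lie outside the band. PTTG1, SPC25, CDK1, MAD2L1 and BUB3 are among those below it, and MKI67 at the long end lies above it.

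Other genes of the same machinery, 109 in 9 lists, had 0 edgeR calls. At an unadjusted p under 0.05 there were 19 lower and 2 higher, where 12.1% and 9.51% of all tested genes were, and DESeq2 called 4 lower and 1 higher, where it called 2.95% and 1.05% of all genes. Of the 109, 74 had fitted values below 0 and 35 above, with a median log2 fold change of -0.07 that was -0.04 without si-NC 5 and 6. The 17 genes of the anaphase-promoting complex and its regulators, the ligase that CDC20 and UBE2C serve, were lower in 15 cases. Their median was -0.20 (-0.06 without si-NC 5 and 6), and 7 were lower at an unadjusted p under 0.05. The RING subunit of that complex, ANAPC11, was at 124, 187 and 212 CPM in the si-NC libraries and 115, 113 and 113 CPM in the si-NORAD libraries. Its log2 fold change was -0.62, and -0.13 without si-NC 5 and 6. The 16 inner kinetochore genes, partners of the members CENPI and CENPK, with factors that load CENPA, were lower in 13 cases. Among these was OIP5 (-0.53), which helps load CENPA. The median of the 16 was -0.17, and -0.04 without si-NC 5 and 6. The 16 outer kinetochore and checkpoint genes had a median of -0.08 (-0.03 without si-NC 5 and 6). In that list ZW10, which recruits dynein to kinetochores, was at 23.8, 25.5 and 23.3 CPM in the si-NC libraries and 31.1, 33.0 and 30.6 CPM in the si-NORAD libraries, and its log2 fold change was 0.38 with all libraries and 0.40 without si-NC 5 and 6. ZW10 was thus higher in every si-NORAD library whichever si-NC libraries it was set against. The 12 genes of cohesin, its loaders and its regulators had fitted values above 0 in 10 cases, with a median of 0.14 that was -0.03 without si-NC 5 and 6 and 0.04 with the length trend removed, and the loader NIPBL had 0.33. The 20 spindle motors and microtubule factors had a median of -0.11 (-0.04 without si-NC 5 and 6), with HAUS1 at -0.44. The 9 further regulators of mitotic entry had -0.07, with the CDK1 inhibitor WEE1 at -0.13. The 12 transcription factors and partners that bind CHR and CCAAT elements or drive G2 and M genes had a median of -0.05, with FOXM1 at 0.20. The 3 condensin II genes had a median of 0.10 (NCAPH2 -0.20) that was -0.04 without si-NC 5 and 6. The 4 abscission genes had -0.00085 (CIT 0.32).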

How the data were processed

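The members and all gene lists were chosen with earlier results of these data known. Total RNA was depleted of ribosomal RNA and made into libraries with a directional kit, per the labels' protocols. Per the submitters' processing notes, the tools were FastQC, HISAT2 and HTSeq 0.6.1 and the genome build was GRCh38. The deposited table holds whole-number read counts per gene, made by the authors with no normalization. It also holds FPKM values made by the authors, and 100% of them matched count, gene length and library total within 0.1%. Columns of other samples numbered 0. Libraries were grouped by the labels' treatment.

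The test was that of edgeR 4.0.16, run in R 4.3.3 on the counts (filterByExpr, TMM scaling, robust quasi-likelihood F test, two-sided, no covariates), and calls needed an adjusted p (Benjamini-Hochberg over all 15515 tested genes) under 0.05. A log2 fold change above 0 means higher in si-NORAD. CPM (the count scaled to a common library total) uses TMM-scaled library sizes. At these depths every member besides PRC1 had 232 counts or more in each library. FPKM further divides by gene length. Groups are said not to overlap when every library of 1 group lies above every library of the other. Lists are described by counts and medians, without a set test. On simulated data for this comparison (15307 genes), the fit recovered 60.6% of genes changed 1.5-fold and 88.3% of those changed 2-fold, with 8 false calls. The simulation holds no difference among the si-NC libraries.

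Genes named by rule are NORAD, the 12 non-overlapping members with the lowest p, and the lowest-p gene of each other list. From each role group they include the member with the highest FPKM and the one farthest from the group's median. Some of these, such as ZWINT, PLK4 and OIP5, are given by log2 fold change alone. Other members are given so that all are accounted for, and those with library values, such as CCNA2, KIF2C and TTK, were chosen after their values were seen. The alternatives comprised RLE and upper quartile scaling in edgeR, no filter or with 1 CPM in 3 libraries, DESeq2 1.42.0, limma 3.58.1 (voom, or log2 FPKM plus 1 or 0.1), a replicate block, removal of the length trend (loess, span 0.3) and leaving out libraries. Sequences were searched with Python 3.11.15.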

Additional observations from a re-analysis of the deposited data

How the results depend on the processing

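With RLE or upper quartile scaling and with a filter of 1 CPM, the count of called members, of all called genes and the members' median kept within 1.5 times or 1 SD of the reported values. The count over all genes, 1 as reported, was 1935 without filter, 425 with DESeq2, 2 with limma-voom, 3 on log2 FPKM with either pseudocount, 2 with the replicate block, 5 with the length trend removed and 499 without si-NC 5 and 6. Leaving out single libraries gave 0 to 6251, the highest without si-NC 4. The count of members, 0 as reported, was 11 without filter, 7 with DESeq2, 6 without si-NC 5 and 6, and 0 to 36 with single libraries left out (36 without si-NC 4). The members' median was -0.0239, -0.0246 and -0.0227 on log2 FPKM (plus 1, plus 0.1, and plus 1 without filter) and -0.139 to -0.0586 with single libraries left out. NORAD was -0.35 without filter, -0.55 without si-NC 5 and 6, both past the threshold, and -0.42 to -0.23 with single libraries left out, past it without si-NC 4. No pairing by the numbers 4, 5 and 6 was seen: deviations of same-numbered libraries correlated at -0.03, -0.02 and -0.07, and the replicate block called 0 members. With 3 libraries per group, each centred on its group's mean, this cannot show that libraries were not handled in pairs. 

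Directions turned for members near 0 and, without si-NC 5 and 6, also for members farther from 0. KIF11 was -0.00058 with DESeq2, -0.00718 with the length trend removed, -0.109 without si-NC 5 and 6 and -0.0477 to 0.0653 with single libraries left out. On log2 FPKM (plus 1, plus 0.1, and plus 1 without filter) PLK4 was 0.0442, 0.0510 and 0.0442, TPX2 0.0354, 0.0358 and 0.0354, and ECT2 0.0326, 0.0332 and 0.0326. With single libraries left out PLK4 ran from -0.0837 to 0.0540, TPX2 from -0.0551 to 0.00305, ECT2 from -0.108 to 0.0112, TOP2A from -0.0263 to 0.169 and PRC1 from -0.0592 to 0.617. With the length trend removed ZWINT was 0.0207, ESPL1 -0.0162 and TPX2 0.00999. Without si-NC 5 and 6, ZWINT was 0.0601, BIRC5 0.0122, INCENP -0.00367, ESPL1 -0.0777, TOP2A -0.103, KIF14 -0.0964, ASPM -0.0109 and PRC1 -0.390. CENPE, at 0.31 with all libraries, and SMC4, at 0.20, were then -0.0546 and -0.125, and further members turned as well. FPKM uses library totals without TMM scaling, so fold changes of all genes, the members' median included, shift together on that scale. The TMM factors were 1.02 in si-NC 4 and in each si-NORAD library, and 0.959 in si-NC 5 and in si-NC 6. The cause of the other changes was not tested. On the sense strand alone a CHR match was present in 60.4% of members against 9.94% of all genes, and a CCAAT match in 45.3% against 24.8%. Counts limited PRC1 alone among the members.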

Other observations

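Genes of DNA replication, the other large programme of dividing cells, were set beside the mitosis genes. Of 42 replication genes (helicase, polymerase, clamp, nucleotide and chromatin assembly genes) 36 had lower fitted values in si-NORAD. Their median log2 fold change was -0.14, against -0.09 in the mitosis genes. edgeR called 0 of them, with 13 lower and 1 higher at an unadjusted p under 0.05, against 12.1% and 9.51% of all tested genes. DESeq2 called 2 lower and 0 higher, where it called 2.95% and 1.05% of all genes. The lowest value was that of RPA3, the smallest subunit of the single-strand binding complex, at -0.61, and the highest that of POLE, the leading-strand polymerase, at 0.23, both chosen after their values were seen. Without si-NC 5 and 6 the median of the replication genes was -0.04, and that of the mitosis genes -0.09. The difference between the lists was not tested.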
